A study of Mus musculus with 12 samples.

Results

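The genes described here encode subunits of the NMDA receptor and the metabotropic glutamate receptor mGluR5, in interneurons sorted from the embryonic mouse cortex. They were chosen by name: a probe set belonged if its only gene symbol in the platform annotation was Grin1, Grin2a, Grin2b, Grin2c, Grin2d, Grin3a or Grm5. Of these 7 genes, 4 had probe sets in the table analysed, 10 in all, out of 22339 probe sets with a single symbol and 11358 symbols. Grin2b had 4 probe sets, Grin2d had 1, Grin3a had 3 and Grm5 had 2. Grin1, which encodes the obligatory GluN1 subunit, and the subunit genes Grin2a and Grin2c were not analysed here.

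NMDA receptors are glutamate-gated channels that pass calcium once glutamate and a co-agonist are bound and depolarisation has expelled magnesium from the pore. GluN1 pairs with GluN2 subunits, which set the kinetics and the strength of the magnesium block, or with GluN3 subunits, which lower calcium flow. GluN2B and GluN2D are the GluN2 subunits of the embryonic brain. mGluR5 belongs to group I of the metabotropic glutamate receptors, which couple through Gq to phospholipase C and release calcium from internal stores. Migrating interneurons express glutamate receptors before they form synapses.

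The 4 groups of cells, with 3 arrays each, were collected from a mixed C57BL/6/CBA background and from embryos of both sexes, without any treatment or mutation of a gene under study. MGE cells, of the medial ganglionic eminence, carried Nkx2-1-Cre and the R26R-YFP reporter and were taken at E18.5 and at E14.5. Here the Nkx2-1 promoter drives Cre, and recombination marks every descendant of a cell that expressed it, whether or not that descendant became an interneuron. CGE cells carried Nkx2-1-Cre together with Dlx1-lox-Venus-lox and were taken at E18.5 and at E16.5. Venus is lost there from Nkx2-1 descendants, so the label stays in cells of the caudal and the lateral eminence. Every group therefore carried Nkx2-1-Cre, while the reporter differed between the lineages, and reporter and lineage cannot be told apart. The study compared the cortical interneurons of these origins as they migrate. Embryos were pooled, and no source used here states how many went into each array. The labels name the replicates biological, with no word on litters, so p-values measure the spread between these arrays.

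All values are log2 intensities of Affymetrix arrays as deposited, already normalised, and lay between 3.23 and 14.97. Replicate arrays correlated at 0.971 to 0.995 over all single-symbol probe sets, and MGE E14.5 replicates 1 and 2 were the closest pair. The labels were checked on marker genes. Lhx6, the MGE interneuron factor, was above 10 on all 12 arrays. It was 12.45 to 12.80 in MGE E18.5 cells and 12.81 to 12.99 in MGE E14.5 cells, against 10.45 to 10.87 in CGE E18.5 cells and 10.24 to 11.33 in CGE E16.5 cells. Sp8, a CGE and LGE factor, was 4.46 to 4.58 and 4.20 to 4.42 in MGE cells at E18.5 and E14.5, against 11.84 to 12.25 and 11.78 to 12.03 in CGE cells at E18.5 and E16.5. Gad1, which makes GABA, lay between 9.44 and 10.88 on all 12 arrays. Because the RNA is from bulk sorts, fewer cells of a type and less RNA per cell cannot be told apart.

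A gene was tested if, on at least 3 arrays, a probe set of it exceeded that array's 40th percentile, a level of 7.10 to 7.17, and 8795 genes were tested. The kept probe set with the highest mean stood for its gene. Of the 10 glutamate receptor probe sets 7 passed, and so all 4 genes were tested. A difference was called at an adjusted p under 0.05 in limma, after Benjamini-Hochberg adjustment over all genes tested. Each difference is MGE minus CGE within a stage, or the later minus the earlier day within a lineage, with its standard error.

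**Figure D1:**
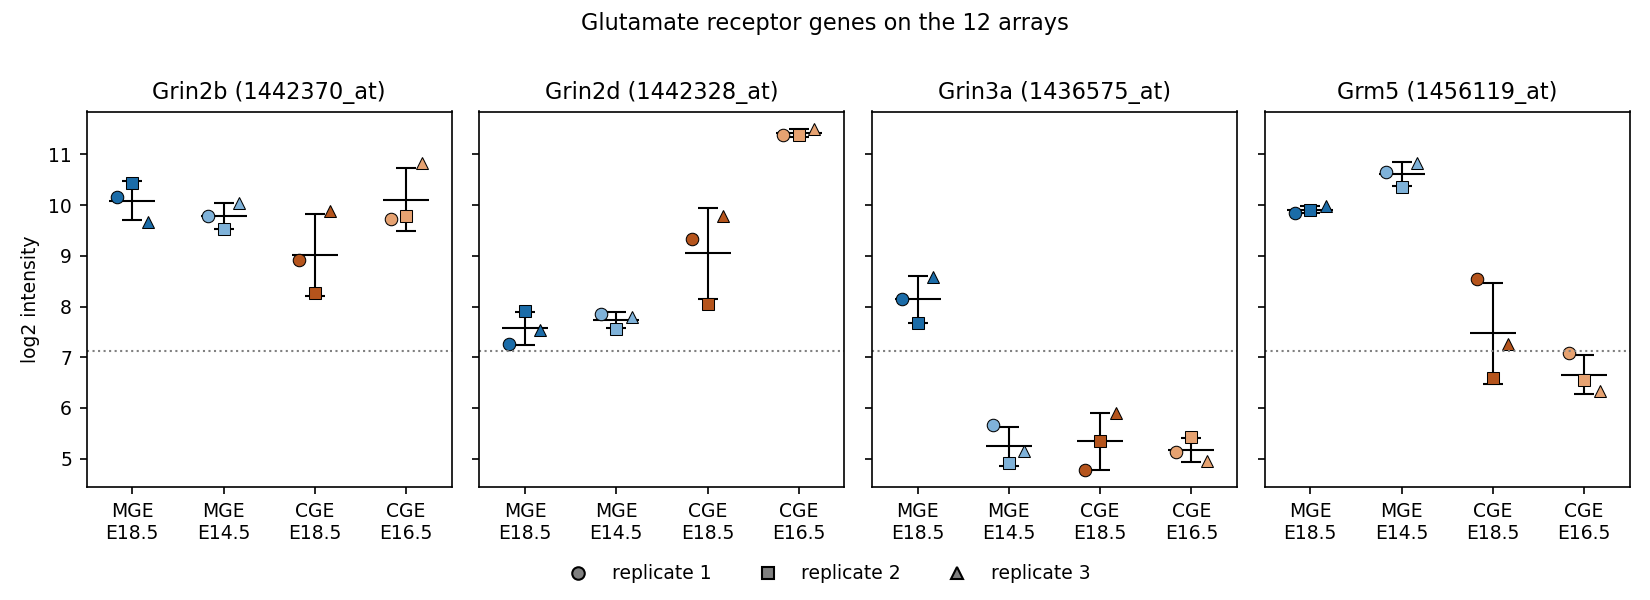
Log2 intensity (y axis) of the probe set that stands for each gene, by group (x axis, 3 arrays each). Symbols are arrays, horizontal bars are means, whiskers are 1 SD and the dotted line is the mean filter level. Grin2d is highest on the 3 CGE E16.5 arrays, Grm5 on the MGE arrays of both days, and Grin3a exceeds the filter level only on the 3 MGE E18.5 arrays.

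Grin2d was the gene of the NMDA receptor with the largest lineage difference. It encodes GluN2D, whose receptors close slowly and are only weakly blocked by magnesium. Its probe set (1442328_at) read 7.27, 7.92 and 7.54 in MGE E18.5 cells, 7.85, 7.55 and 7.80 in MGE E14.5 cells, 9.33, 8.04 and 9.78 in CGE E18.5 cells, and 11.38, 11.39 and 11.51 in CGE E16.5 cells. The CGE E16.5 arrays stood above all others, the CGE E18.5 arrays came next, and the MGE arrays of both days overlapped each other at the bottom. Replicate 2 of the CGE E18.5 cells lay only just above the highest MGE array.

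In the early lineage comparison, between MGE E14.5 and CGE E16.5 cells, Grin2d averaged 7.73 ± 0.16 in MGE cells and 11.42 ± 0.07 in CGE cells (SD, n = 3 each). The difference was -3.69 ± 0.34, or 12.9-fold lower in MGE cells (limma, adjusted p = 3.1e-05). At E18.5 it averaged 7.57 ± 0.33 in MGE cells and 9.05 ± 0.90 in CGE cells (SD, n = 3 each), a difference of -1.48 ± 0.34 (2.79-fold lower in MGE cells, limma, adjusted p = 0.0086). The MGE cells were 2 days younger in the early comparison, where day and lineage cannot be told apart.

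Grin2d fell by 2.37 ± 0.34 in CGE cells between E16.5 and E18.5, a 5.18-fold drop (limma, adjusted p = 0.00301). In MGE cells the difference between E18.5 and E14.5 was -0.16, with a 95% interval of -0.91 to 0.59 (adjusted p = 0.782). The lineage difference itself was smaller at the later stage: late minus early was 2.21 ± 0.48 (limma, adjusted p = 0.0133). The size of the E18.5 difference rested partly on single arrays. It was -1.98 without CGE E18.5 replicate 2 and -1.11 without CGE E18.5 replicate 3, and it stayed past the threshold in both. Marker genes moved between the CGE days too, where 4.49% of all genes tested rose, 6.37% fell and the median was -0.07. Of 8 CGE lineage genes 4 fell (median -0.60), and of 7 MGE lineage genes 2 fell. Both tested microglia markers rose, as did Meis2, 1 of 3 tested markers of the lateral eminence and striatum (1.94). Of 13 precursor markers Sox8 (2.17) and Olig1 (1.03) rose, and of 8 markers of radial glia and astrocytes Slc1a3 (0.98) and Fabp7 (0.74) rose and Slc1a2 (-1.45) fell. The microglia markers, Csf1r and C1qb, and also Sox8 and Slc1a3 passed the filter only through E18.5 arrays, which favoured their calls. Olig1 was below the filter level on every CGE array, where dim and absent transcripts cannot be told apart. Reln, 1 of 2 tested Cajal-Retzius markers and also a gene of some interneurons, fell by 3.34. The microglia list averaged 6.48, 7.48 and 6.04 on CGE E18.5 replicates 1, 2 and 3, so it was highest where Grin2d was lowest, and 4.69 to 5.61 on the CGE E16.5 arrays. The part of these markers in the Grin2d result was not tested.

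Grin2b encodes GluN2B, the subunit that gives embryonic NMDA receptors their slow decay and high glutamate affinity. Its brightest probe set (1442370_at) read 10.16, 10.43 and 9.67 in MGE E18.5 cells, 9.79, 9.53 and 10.04 in MGE E14.5 cells, 8.92, 8.26 and 9.88 in CGE E18.5 cells, and 9.73, 9.78 and 10.82 in CGE E16.5 cells. The order of the means was CGE E16.5, MGE E18.5, MGE E14.5 and CGE E18.5, and neighbours in that order overlapped in range. All 12 arrays were above the filter level. The late difference was 1.07 ± 0.39 (limma, adjusted p = 0.0701), and the CGE difference between E18.5 and E16.5 was -1.09 ± 0.39 (limma, adjusted p = 0.0982). Neither passed the threshold, and the early difference (-0.32) and the MGE difference between days (0.30) were smaller than their errors.

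A second Grin2b probe set (1457003_at) read 9.79, 10.05 and 9.34 in MGE E18.5 cells, 9.60, 9.38 and 10.10 in MGE E14.5 cells, 8.67, 8.22 and 9.23 in CGE E18.5 cells, and 9.47, 9.64 and 10.07 in CGE E16.5 cells. The CGE E18.5 arrays were all below every other array. In a fit over the 16008 probe sets that passed the filter, this set was 2.03-fold higher in MGE than in CGE cells at E18.5 (1.02 ± 0.28, limma, adjusted p = 0.0213). It was lower in CGE cells at E18.5 than at E16.5 by a like amount (-1.02 ± 0.28, limma, adjusted p = 0.0399). Both sets thus gave differences near 1 in these comparisons, and only the second, whose replicates were closer together, passed the threshold.

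The other 2 Grin2b probe sets lay below the filter level on all 12 arrays and were not tested. One (1422223_at) ranged over 6.05 to 6.76 in MGE E18.5 cells and 4.93 to 6.04 in CGE E18.5 cells, a difference of 0.96 with ranges that all but met. The other (1431700_at) ranged over 4.51 to 5.46 in MGE E18.5 cells and 5.11 to 5.69 in CGE E18.5 cells, with a difference of -0.49 and overlapping ranges. It therefore ran against the other 3 in sign, at a level where a dim value and an absent transcript cannot be told apart.

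**Figure D2:**
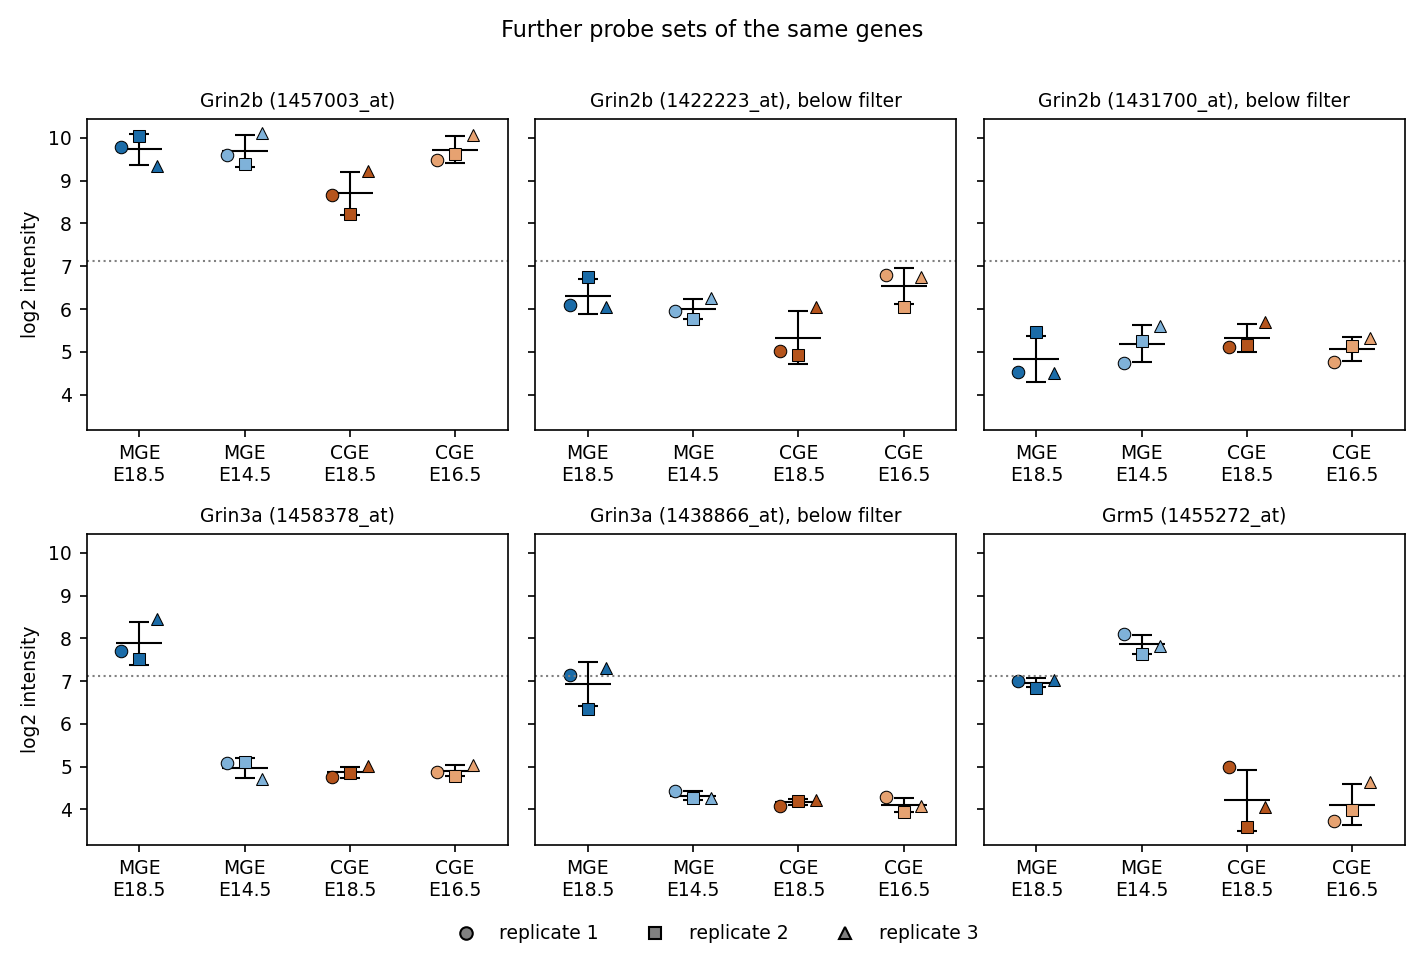
Log2 intensity (y axis) of the 6 further probe sets of Grin2b, Grin3a and Grm5 by group (x axis). Symbols are arrays, horizontal bars are means, whiskers are 1 SD, and the dotted line is the mean filter level. All 3 Grin3a sets, counting the one that stands for the gene, were highest in MGE E18.5 cells.

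Grin2d and Grin2b encode alternative GluN2 subunits, and their unequal change was read within each array. Grin2d minus Grin2b was -2.89, -2.52 and -2.14 in MGE E18.5 cells, -1.93, -1.97 and -2.25 in MGE E14.5 cells, 0.41, -0.22 and -0.10 in CGE E18.5 cells, and 1.65, 1.61 and 0.69 in CGE E16.5 cells. Every CGE array lay above every MGE array. Since the 2 probe sets bind with different strength, the sign of a single value says nothing of which transcript is more abundant, and only the change between groups can be read.

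The within-array value differed between MGE and CGE cells by -2.54 at E18.5 and by -3.37 in the early comparison, each with an exact two-sided permutation p of 0.1. That is the smallest p that 3 arrays against 3 can give. Between E18.5 and E16.5 it fell by 1.29 in CGE cells (exact permutation p = 0.1), and between E18.5 and E14.5 it fell by 0.46 in MGE cells (exact permutation p = 0.2). No test of this size could pass 0.05, and the value restates the Grin2d and Grin2b differences given above rather than adding to them.

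**Figure D3:**
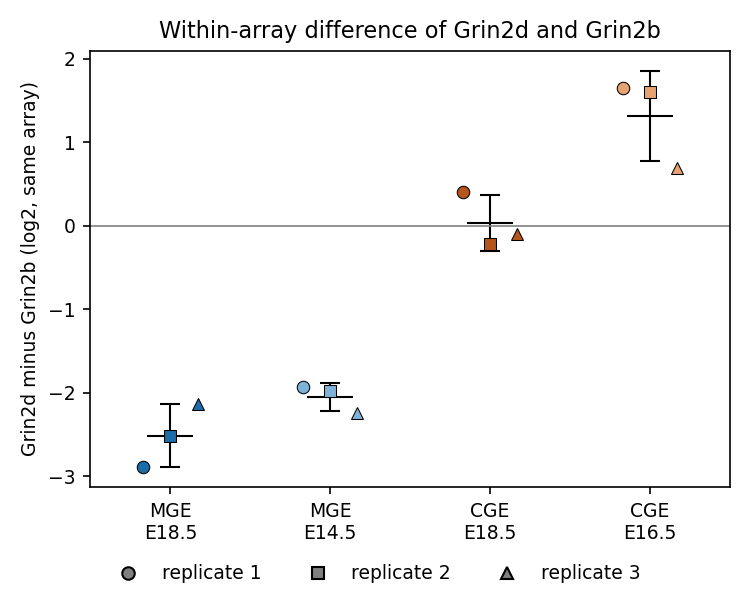
Grin2d minus Grin2b on the same array (y axis, log2) by group (x axis, 3 arrays each). Symbols are arrays, horizontal bars are means and whiskers are 1 SD. The 6 MGE arrays lie at or below -1.93 and the 6 CGE arrays at or above -0.22.

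Grin3a encodes GluN3A, which reduces the calcium permeability of NMDA receptors and restrains the maturation of synapses. Its probe set (1436575_at) read 8.15, 7.68 and 8.59 in MGE E18.5 cells, 5.66, 4.91 and 5.16 in MGE E14.5 cells, 4.77, 5.36 and 5.90 in CGE E18.5 cells, and 5.13, 5.44 and 4.96 in CGE E16.5 cells. The MGE E18.5 arrays stood alone at the top, and the other 3 groups overlapped one another below the filter level. Grin3a passed the filter only through the group in which it was high, so that it was bound to differ once it was tested. With that limit, it was higher in MGE cells at E18.5 than at E14.5 by 2.90 ± 0.30 (limma, adjusted p = 3.4e-05, and 4.1e-05 in a fit of all genes without the filter). At E18.5 it was higher in MGE than in CGE cells by 2.80 ± 0.30 (limma, adjusted p = 3.7e-05, and 4.6e-05 without the filter). No fold is given, because dim and absent transcripts cannot be told apart in the lower group.

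The early lineage difference of Grin3a was 0.07, with a 95% interval of -0.59 to 0.72 (limma, adjusted p = 0.933). Its CGE difference between E18.5 and E16.5 was 0.17, with an interval of -0.49 to 0.83 (adjusted p = 0.764). The change of the lineage difference was 2.73 ± 0.43 (limma, adjusted p = 0.0017, and 0.0019 without the filter).

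A second Grin3a probe set (1458378_at) read 7.70, 7.51 and 8.46 in MGE E18.5 cells, with 4.70 to 5.11 in MGE E14.5 cells, 4.76 to 5.01 in CGE E18.5 cells and 4.79 to 5.05 in CGE E16.5 cells. Its values differed by 2.92 between E18.5 and E14.5 in MGE cells and by 3.02 between MGE and CGE cells at E18.5. It too passed the filter only through the MGE E18.5 arrays, which favoured its calls, so no p-value is given for these differences. The dimmest set (1438866_at) missed the filter. It read 7.13, 6.35 and 7.31 in MGE E18.5 cells and at most 4.44 on the other 9 arrays, which gave differences of 2.61 between the MGE days and 2.77 between the lineages at E18.5. All 3 sets had the same order of replicates in MGE E18.5 cells, with replicate 3 highest and replicate 2 lowest.

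Markers of oligodendrocyte precursors, which the Nkx2-1 lineage also makes, moved with Grin3a. The list held 14 such genes in the table, and 13 were tested. Of these, 12 were higher in MGE cells at E18.5 than at E14.5, with a median difference of 3.98. Olig2, Sox10, Nkx2-2, Gpr17, Bcan and C1ql1 exceeded the filter level only on the MGE E18.5 arrays, which favoured their calls. The count is thus a description. Over all genes tested in that comparison 11.4% rose and 9.77% fell, and the median was -0.06. The mean level of the list was 10.32 to 11.07 in MGE E18.5 cells and at most 7.12 in MGE E14.5 cells, against 6.23 to 6.41 in CGE E18.5 cells and 5.92 to 6.14 in CGE E16.5 cells. Replicate 3 of the MGE E18.5 cells had the highest list level and replicate 2 the lowest, the same order as for Grin3a.

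The largest of these differences between the MGE days were in Sox8 (5.25), Gpr17 (4.89) and Nkx2-2 (4.85). For these genes the MGE E14.5 arrays were all below the filter level. The defining marker Pdgfra, a growth factor receptor, read 12.52, 12.25 and 12.70 in MGE E18.5 cells, against 8.03, 8.43 and 7.42 in MGE E14.5 cells, and was below the filter level on all 6 CGE arrays. In the same comparison 7 of 8 pan GABAergic genes fell (median -0.62), beside 9.77% of all genes tested. Of 8 markers of radial glia and astrocytes 5 rose, beside 11.4% of all genes. Both tested microglia markers and the 1 tested vascular marker rose too, and the 3 tested pallial glutamatergic markers gave no call. These microglia and vascular markers, Csf1r, C1qb and Rgs5, and the glial marker Slc1a3 passed the filter only through E18.5 arrays, which favoured their calls. The part of these markers in the Grin3a result was not tested.

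Grm5 encodes mGluR5 and had the largest early difference among the 4 genes. Its brighter probe set (1456119_at) read 9.84, 9.91 and 9.99 in MGE E18.5 cells, 10.66, 10.35 and 10.82 in MGE E14.5 cells, 8.54, 6.60 and 7.27 in CGE E18.5 cells, and 7.09, 6.55 and 6.33 in CGE E16.5 cells. All MGE arrays lay above all CGE arrays, and the CGE groups overlapped. In the early comparison Grm5 averaged 10.61 ± 0.24 in MGE cells and 6.66 ± 0.39 in CGE cells (SD, n = 3 each), with a difference of 3.96 ± 0.38 (limma, adjusted p = 4.1e-05). The CGE E16.5 arrays were all below the filter level, so no fold is given. At E18.5 it averaged 9.91 ± 0.07 in MGE cells and 7.47 ± 0.99 in CGE cells (SD, n = 3 each), with a difference of 2.44 ± 0.38 (limma, adjusted p = 0.000654). Replicates 1 and 3 of the CGE E18.5 cells were above the filter level and replicate 2 was below it.

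Between days, Grm5 was not called in either lineage. The MGE difference was -0.70 with a 95% interval of -1.53 to 0.13 (limma, adjusted p = 0.221), although no MGE E18.5 array reached the lowest MGE E14.5 array. The CGE difference was 0.81 with an interval of -0.02 to 1.64 (adjusted p = 0.198). The change of the lineage difference, late minus early, was -1.51 ± 0.54 and did not pass the threshold either (limma, adjusted p = 0.112).

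The second Grm5 probe set (1455272_at) read 7.01, 6.85 and 7.04 in MGE E18.5 cells, 8.10, 7.64 and 7.83 in MGE E14.5 cells, 4.99, 3.60 and 4.06 in CGE E18.5 cells, and 3.72, 3.99 and 4.64 in CGE E16.5 cells. It passed the filter only through the MGE E14.5 arrays. Its order of groups by range was the same, with all MGE arrays on top. The values differed by 3.74 in the early and by 2.75 in the late comparison, with the CGE arrays far below the filter level, and by -0.89 between the MGE days. No p-value is given for them, because the filter favoured the calls of this set.

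Within the CGE groups the Grm5 level varied with the array. In CGE E18.5 cells replicate 1 was highest and replicate 2 lowest for both Grm5 sets. The 7 MGE lineage genes in the table did not share 1 order there. Sst had that of Grm5, with 9.80, 6.76 and 8.30 on replicates 1, 2 and 3, as did Npy and Mef2c. Lhx6 and Maf were highest on replicate 3, and Sox6 (8.33, 9.14 and 8.61) and Satb1 were lowest on replicate 1. In CGE E16.5 cells Sst read 8.17, 9.44 and 10.00, the reverse of the order of the brighter Grm5 set and the order of the dimmer one. The 5 markers of the lateral eminence and striatum in the table averaged 9.79, 7.98 and 7.76 in CGE E18.5 cells and 8.45, 6.87 and 7.01 in CGE E16.5 cells, so replicate 1 was highest in both groups, as it was for the brighter Grm5 set. In MGE cells this list averaged 6.11 to 6.52. Without CGE E18.5 replicate 1 the late difference of Grm5 was 2.98, and without replicate 2 it was 2.01. The part of these markers in it was not tested. Of the 13 tested precursor markers, 7 were higher and 1 was lower in MGE cells in the early comparison, beside 4.16% and 5.90% of all genes. At E18.5, 12 of them were higher, beside 13.0%. Of the 14 listed, 11 in CGE E18.5 cells and 12 in CGE E16.5 cells averaged below the filter level. Most were thus tested only through MGE arrays, which favoured these calls. In MGE cells their list level was lower at E14.5 than at E18.5. The Grm5 values were higher at E14.5, a difference that was not called for the brighter set. The part of the precursor markers in the Grm5 result was not tested either.

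**Figure D4:**
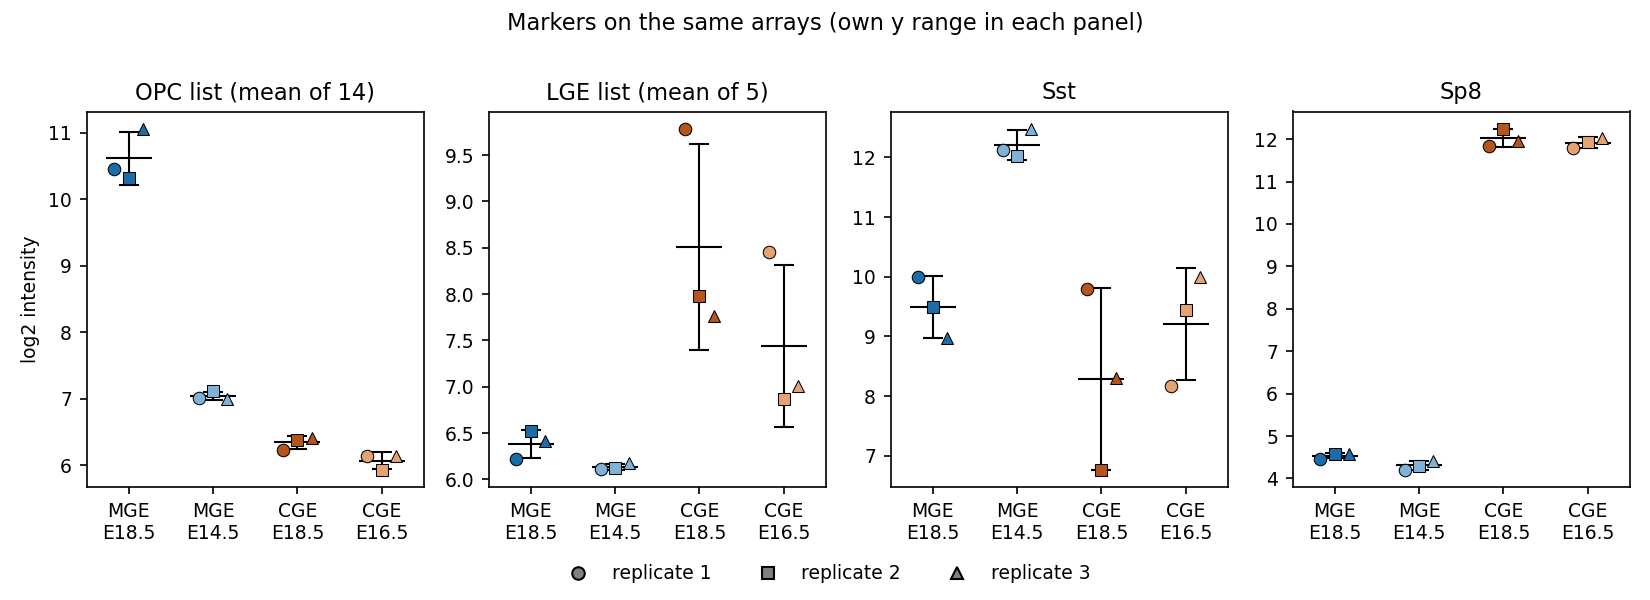
Log2 intensity (y axes, own range in each panel) of the oligodendrocyte precursor (OPC) list, the list of the lateral eminence (LGE) and striatum, Sst and Sp8 by group (x axis). Symbols are arrays, horizontal bars are means and whiskers are 1 SD. The precursor list is highest on the 3 MGE E18.5 arrays, and the LGE list is highest on replicate 1 of both CGE groups.

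Counted over the genes, the early comparison called 2 of the 4, Grm5 higher and Grin2d lower in MGE cells, beside 10.1% of all genes tested (4.16% higher and 5.90% lower). The late comparison called Grin3a and Grm5 higher and Grin2d lower in MGE cells, 3 of 4, beside 22.8% (13.0% higher and 9.85% lower). MGE maturation called Grin3a higher, 1 of 4, beside 21.2% (11.4% higher and 9.77% lower), and CGE maturation called Grin2d lower, 1 of 4, beside 10.9% (4.49% higher and 6.37% lower). The change of the lineage difference was called for Grin2d and Grin3a, 2 of 4, both in the positive direction, beside 8.64% (6.77% positive and 1.88% negative). For Grin2d the positive sign was a shrinking negative difference, while for Grin3a a positive difference was called at the late stage and none at the early stage. With 4 genes, of which Grin3a was tested only through the group where it was high, these shares describe the genes and support nothing beyond them.

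Of the 7 probe sets that passed the filter, both Grin3a sets and the dimmer Grm5 set passed only through the group where they were high, which favoured their calls. The counts over sets are thus a description and support nothing. Of these, 3 of 7 were called in the early comparison, beside 9.65% of all probe sets tested, and 6 of 7 in the late one, beside 22.6%. MGE maturation called the 2 tested Grin3a sets, beside 19.4%, and CGE maturation called Grin2d and 1 Grin2b set, beside 10.2%. Groups did not overlap for 2 of the 4 genes in the early comparison and for 3 of 4 in the late one, beside 33.1% and 36.8% of all genes. They did not overlap for Grin3a and Grm5 between the MGE days, beside 47.8%, nor for Grin2d between the CGE days, beside 25.5%. The comparisons share arrays, so their calls are not independent of each other.

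**Figure D5:**
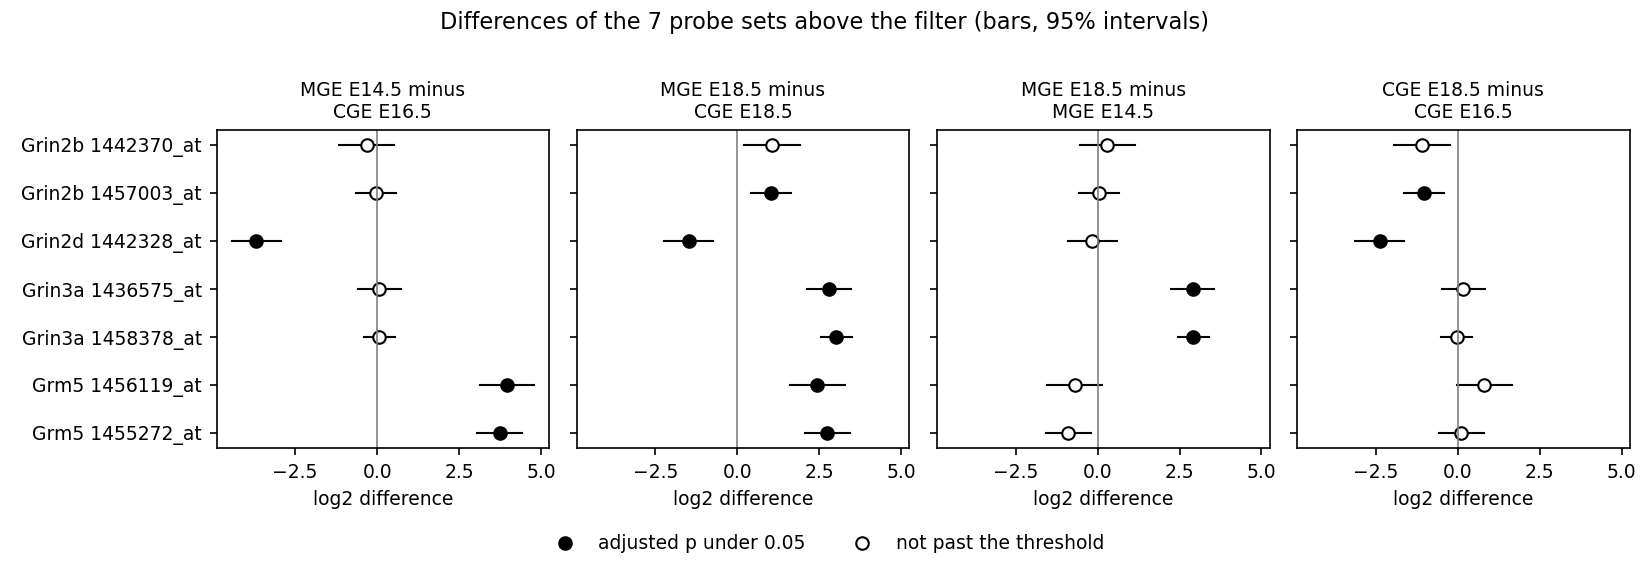
Log2 differences (x axis) of the 7 tested probe sets (y axis) in the 4 comparisons, from the fit over all probe sets that passed the filter. Bars are 95% intervals, and filled points passed an adjusted p under 0.05. Both Grin3a sets and Grm5 1455272_at entered the fit only through the group where they are high. Grin2d lies left of 0 in both lineage comparisons, Grm5 lies right of 0 in both, and Grin3a lies right of 0 only at E18.5 and between the MGE days.

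The scaffolds and signalling partners of NMDA receptors followed no single direction. Of 26 such genes, 22 were in the table and 17 were tested. In the early comparison 2 were higher and 3 lower in MGE cells, with a median of 0.11 beside -0.02 over all genes tested, of which 4.16% were called higher and 5.90% lower. Neto1, an auxiliary subunit that binds NMDA and kainate receptors, was higher (2.51), as was the scaffold gene Dlgap1 (2.06), and the PDZ protein gene Mpdz was lower (-2.25). Neto1 read 12.27, 11.97 and 12.06 in MGE E14.5 cells, against 9.17, 9.81 and 9.78 in CGE E16.5 cells, with no overlap.

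At E18.5, 4 of the 17 were higher and 1 lower in MGE cells, with a median of 0.34 beside -0.02, where 13.0% of all genes were higher and 9.85% lower. Dlgap1 (2.38) and Neto1 (1.75) were again higher and Mpdz (-1.38) lower. Dlgap1 read 10.44, 10.15 and 10.19 in MGE E18.5 cells, against 8.23, 7.36 and 8.06 in CGE E18.5 cells. In MGE maturation 2 of 17 rose and 2 fell (median -0.19 beside -0.06, with 11.4% and 9.77% of all genes), led by Mpdz (1.20), Kalrn (-0.81) and the kinase gene Fyn (0.56). In CGE maturation none of the 17 rose and 3 fell (median -0.28 beside -0.07, with 6.37% of all genes lower): Kalrn (-1.26), the Rac exchange factor gene Tiam1 (-0.91) and Camk2g (-0.72), a subunit gene of the calcium-dependent kinase that NMDA receptors activate.

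Of 24 genes of group I metabotropic signalling, 16 were in the table and 15 were tested. In the early comparison 2 were higher and 1 was lower in MGE cells, with a median of 0.01 beside -0.02 over all genes, of which 4.16% were higher and 5.90% lower. These were the phospholipase gene Plcb1 (1.18) and the protein kinase C genes Prkce (0.86) and Prkca (-1.41). At E18.5, 4 were higher and none lower, with a median of 0.15, beside 13.0% and 9.85% of all genes. The largest differences were in Itpr2 (4.52), which encodes a calcium release channel of the endoplasmic reticulum, in Prkcb (3.34) and in Prkca (1.18).

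Itpr2 read 9.09, 9.09 and 9.64 in MGE E18.5 cells, against 4.86, 4.97 and 4.43 in CGE E18.5 cells and 4.75 to 5.36 in MGE E14.5 cells. Only the MGE E18.5 arrays were thus above the filter level, as for Grin3a. This favoured the calls of Itpr2 at E18.5 and between the MGE days, and the counts that include it. In MGE maturation 4 of the 15 rose and 2 fell, beside 11.4% and 9.77% of all genes, led by Itpr2 (4.23), Prkcb (3.73) and Prkca (1.33), and in CGE maturation 2 fell, beside 6.37%, Prkca (-1.26) and Ncdn (-0.64). Homer1, whose protein ties mGluR5 to internal calcium stores, was 0.66 higher in MGE cells at E18.5 (limma, adjusted p = 0.0414).

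Other glutamate receptor genes were set beside these. Of 7 further metabotropic receptor genes, Grm3 and Grm4 were in the table, and Grm3 was below the filter level on all 12 arrays. Grm4 was lower in MGE cells at E18.5 than at E14.5 (-0.74, limma, adjusted p = 0.0063), with 6.34, 6.29 and 6.59 against 7.16, 7.18 and 7.08. Every MGE E18.5 array and MGE E14.5 replicate 3 were below the filter level. Grm4 passed the filter only narrowly, through MGE E14.5 and CGE E16.5 arrays, which favoured this call. Of 11 AMPA, kainate and delta receptor genes 8 were tested. In the early comparison 5 were higher and none lower in MGE cells, with a median of 1.32 beside -0.02 over all genes (4.16% higher and 5.90% lower), led by Grik1 (3.20), Gria1 (2.55) and Gria4 (1.65). Grik1 passed the filter only through MGE E14.5 arrays and Gria3 only through MGE arrays, which favoured their calls and this count.

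At E18.5, 5 of these 8 were higher and none lower, with a median of 1.59, beside 13.0% and 9.85% of all genes. They were led by Gria3 (4.45), Grid1 (2.46) and Gria1 (2.29). Gria3 and Grid1 averaged 6.18 and 5.19 in CGE E18.5 cells, and Grik1 averaged 5.05 in CGE E16.5 cells. These levels are below the filter, where dim and absent transcripts cannot be told apart, so the sizes of these differences are uncertain. Gria3 and Grid1 passed the filter only through MGE arrays, which favoured their calls and the count at E18.5. Gria1, Gria3, Gria4 and Grik2 were called in both comparisons, Grik1 only in the early and Grid1 only in the late one. The change of the lineage difference was called for Grik1 (-2.50, limma, adjusted p = 0.000673), a call that the filter favoured, and not for Grid1 (1.38, adjusted p = 0.366). Gria3 rose by 3.27 in MGE cells between the days, while the kainate receptor genes Grik1 and Grik3 fell by 2.08 and by 0.69. Grik1 averaged 6.17 in MGE E18.5 cells, also below the filter level, so the filter favoured the call of its fall. Gria3 read 10.49, 10.32 and 11.06 in MGE E18.5 cells, against 7.57, 7.40 and 7.09 in MGE E14.5 cells. Its order over the MGE E18.5 replicates was that of Grin3a and of the precursor list, an order that 3 arrays can share by chance. The part of the precursor markers in the Gria3 result was not tested.

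The genes whose centred profile over the 12 arrays lay nearest to each of the 4 were found by the root mean square difference in log2. Nearest to Grin2d were Crb1 (0.45), St8sia5 (0.52) and Cbln2 (0.59), where the profile of Grin2d itself had a root mean square of 1.59. Crb1 averaged 7.40 in CGE E16.5 cells, against 3.85 in MGE E18.5, 4.07 in MGE E14.5 and 4.70 in CGE E18.5 cells. St8sia5 and Cbln2 averaged below the filter level in both MGE groups. These matches thus rest partly on levels where dim and absent transcripts cannot be told apart. Nearest to Grin3a were Pdpn (0.33), Akap12 (0.33) and Loxl3 (0.34), beside 1.30 for Grin3a. Pdpn averaged 8.16 in MGE E18.5 cells, 5.69 in MGE E14.5 cells, 5.80 in CGE E18.5 cells and 5.68 in CGE E16.5 cells, so it was high in the same group only.

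Nearest to Grm5 were Pxdc1 (0.52), Nxph1 (0.72) and Thbs1 (0.73), beside 1.70. Nxph1, a secreted ligand of neurexins, averaged 11.32 and 11.65 in MGE cells at E18.5 and E14.5, and 7.91 and 8.42 in CGE cells at E18.5 and E16.5. Nearest to Grin2b were Nexmif (0.30), Ank3 (0.32) and Dusp4 (0.32), where its own root mean square was only 0.63.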

How the data were processed

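The data were 12 Affymetrix mouse arrays, 3 for each of 4 groups. FACS-sorted cells (non-background events without the dimmest) gave the RNA, which was extracted with an RNeasy kit and amplified with the NuGEN Ovation Pico system. The deposited log2 values had been background-corrected and normalised by the authors with Bioconductor. MAS5 is named in the submitters' processing notes, with no version, so the exact normalisation is not settled, and no detection calls were used. Array medians lay between 7.75 and 7.81. Arrays have no read depth, and their number limits the precision.

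Of 27094 probe sets, 34 controls, 571 with several symbols and 4150 with none were left out. The filter left 16008 probe sets and 8795 genes. One mean per group was fitted with limma 3.58.1 in R 4.3.3 over all arrays, with 8 residual degrees of freedom and two-sided tests. The procedure was tested on simulated data. The within-array difference was tested by exact permutation over arrays.

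The members and the 15 gene lists were chosen with earlier results of these data known. The text names every probe set of the members, up to 3 called genes of a list with the largest differences, markers given beside a result, and the 3 nearest profiles per gene. No coordinates are given, because no genome build is stated for the table.

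Alternatives covered the normalisation, filter, choice of probe set, variance model, array weights, sample subset and left-out arrays.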

Additional observations from a re-analysis of the deposited data

Results flagged for a closer look

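The lineage difference of Grin2d changed between the stages by 2.21 ± 0.48 (limma, adjusted p = 0.0133), with -1.48 at E18.5 and -3.69 in the early comparison, and the MGE cells were lower at both. The lineage difference of Grin3a changed by 2.73 ± 0.43 (limma, adjusted p = 0.0017), with 2.80 at E18.5 and 0.07 in the early comparison. Both were singled out because the difference between the stages was itself tested and passed the threshold. Grin3a could be tested only through the MGE E18.5 arrays, where it was high, so its passing was favoured by the filter, and the adjusted p was 0.0019 without the filter. The early stage compared cells of different days, E14.5 for MGE and E16.5 for CGE, so stage and day cannot be told apart in either.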

How the results depend on the processing

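Of 491 values of single genes under alternatives, 475 kept their direction and their side of the threshold, 11 passed it newly, 0 lost it and 5 changed sign. The sign changes were all in differences near 0. With an array left out, early Grin3a ranged over -0.14 (without MGE E14.5 replicate 1) to 0.23, and was -0.041 without CGE E16.5 replicate 3. Early Grin2b ranged over -0.52 to 0.031 (without CGE E16.5 replicate 3), and CGE maturation of Grin3a over -0.11 (without CGE E18.5 replicate 3) to 0.45. CGE maturation of Grin3a was -0.035 with the probe set of largest variance. The cause was not tested.

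Grin2b at E18.5 was called without CGE E18.5 replicate 3 (1.49, adjusted p = 0.0119), without CGE E16.5 replicate 3 (adjusted p = 0.0457), with the mean of its probe sets (1.04, adjusted p = 0.0349) and with a trended prior (adjusted p = 0.0391). Without CGE E18.5 replicate 2 its late difference was 0.69 (adjusted p = 0.232) and its CGE maturation -0.71, and without CGE E16.5 replicate 3 the CGE maturation was -0.73. Without CGE E18.5 replicate 3 its CGE maturation (-1.52) and its change (1.82) were called too. Grm5 in MGE maturation was called with array weights (-0.68), with only the groups' arrays and without CGE E18.5 replicate 1, and its change with array weights (-1.48) and without CGE E18.5 replicate 2 (-1.95).

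The early comparison called 885 genes, with 1814 under array weights, 546 with MGE E14.5 replicates 1 and 2 averaged, and 532 to 1004 with an array left out. MGE maturation gave 1866, with 3490, 1210 and 1168 to 2012 under the same settings. CGE maturation gave 955, with 543 under array weights, 175 with only the groups' arrays and 374 to 1207 with an array left out. Of the 4 genes, MGE maturation called 0 with a 60th percentile filter, which drops Grin3a, 2 with array weights, 2 with only the groups' arrays and 1 to 2 with an array left out. CGE maturation called 1 to 2 with an array left out, and the change called 1 with the 60th percentile filter.

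Replicate numbers were not used to pair the arrays in the main fit. Over 18 same-numbered pairs the deviations correlated at -0.10 to 0.24, with 4 over 0.1. The highest value among differently numbered pairs was 0.19. Of 12 arrays, 6 correlated best, among arrays of other groups, with one of their own number. With the replicate block, genes called were 828 in the early and 1941 in the late comparison, 1712 in MGE maturation, 869 in CGE maturation and 752 in the change, and no call of the 4 genes changed. The within-array difference was not run under the variance, weight, filter and block settings.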
